A study of Mus musculus with 8 samples.

Results

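The interferon-inducible GTPases described here are 8 mouse genes of a pair of families, the immunity-related GTPases (IRG; Igtp, Irgm1, Irgm2 and Iigp1) and the guanylate-binding proteins (GBP; Gbp2, Gbp3, Gbp6 and Gbp7). They were measured by the 12 probe sets, of 45101 on the array, that name exactly 1 of these genes, and the array names 18193 genes in all. The 8 genes were chosen by their lower intensity in ovalbumin (OVA) mice than in controls on these same arrays, so their OVA against control values are a description and carry no test. Igtp, Irgm1, Irgm2 and Gbp3 have 1 probe set each, the other 4 genes have 2 probe sets each, and all 12 lay above the intensity filter.

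Total RNA came from Peyer's patches (clusters of lymphoid follicles in the wall of the small intestine) of 8 C3H/Hej mice aged 6 weeks at the start. OVA, a food allergen from egg white, was gavaged to 2 females (mice 2 and 12) and 4 males (mice 1, 5, 8 and 13) at 40 mg/kg per day over 28 days. The controls, 1 female (mouse 7) and 1 male (mouse 8), received saline for the same time. C3H/Hej mice, controls included, lack a working Tlr4 receptor and so respond poorly to lipopolysaccharide. Each sample has its own array and a mouse number, with number 8 given to both a male control and a male OVA mouse, and with 1 control per sex the spread between controls of the same sex is unknown. The trimmed mean intensity of the arrays, over the 2nd to 98th percentile, ran from 65.1 to 68.2. The extraction text of the labels speaks of a human brain region. Of 8 neuron and glia markers with a probe set 3 passed the filter and the median was an intensity of 8.82, while all 11 B cell markers passed it with a median of 240.6.

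IRG and GBP proteins bind and hydrolyse GTP and are made in many cell types on exposure to interferon gamma, the cytokine of T cells, natural killer cells and group 1 innate lymphoid cells. In infected cells they gather on the membranes of vacuoles that hold parasites or bacteria, or on the microbes themselves, and help to break them open. Among the IRG proteins Irgm1, Irgm2 and Igtp (also called Irgm3) sit on the cell's own membranes and hold back the effector proteins, of which Iigp1 (Irga6) is the best studied. Interferon signals reach these genes through short promoter sequences, the gamma-activated sites (GAS) and the interferon-stimulated response elements (ISRE), the latter bound by IRF1 among others.

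Promoters of 6 of the 8 members were found in RefSeq (build GRCm38.p6, of the C57BL/6J strain, not C3H/Hej), each 250 bases before to 50 bases after a transcription start. Every one of these 6 genes held an ISRE core, GAAANNGAAA read on either strand, which 3.99% of 27025 genes with a promoter held (3.44% of 32851 promoters). A GAS core, TTCNNNGAA, stood in the promoters of 3 of the 6 genes (Igtp, Irgm2 and Gbp7) and in those of 9.55% of all genes (8.3% of promoters). The matches describe the letters of these windows and are not measured binding sites. The stretches below are shown because they hold the matched elements of the genes whose intensities follow. They run 5′ to 3′ on the strand of the gene, with capitals for both motifs.
Igtp, chr11:58199496-58199546, plus strand: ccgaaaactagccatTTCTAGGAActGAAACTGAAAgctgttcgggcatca
Irgm2, chr11:58214887-58214937, plus strand: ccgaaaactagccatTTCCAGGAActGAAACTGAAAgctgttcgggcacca
Irgm1, chr11:48871420-48871465, minus strand: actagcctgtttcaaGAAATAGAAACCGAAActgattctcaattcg
Gbp2, chr3:142620589-142620628, plus strand: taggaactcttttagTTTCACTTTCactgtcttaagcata
Gbp3, chr3:142559984-142560029, plus strand: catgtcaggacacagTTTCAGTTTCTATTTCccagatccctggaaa
Gbp7, chr3:142530215-142530307, plus strand: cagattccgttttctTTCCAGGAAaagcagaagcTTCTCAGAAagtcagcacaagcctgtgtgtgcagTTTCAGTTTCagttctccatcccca

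Igtp and Irgm2 follow each other in the reference gene order of chromosome 11, and their promoters were identical at 244 of 265 aligned bases (92.1%), against 154 of 218 (70.6%) for Igtp and Irgm1. In both, the GAS core lay just before the ISRE core, which ended 25 bases before the start in Igtp and 55 bases before it in Irgm2. Irgm1 held 2 ISRE matches that overlap, the first beginning 30 bases before its start, and no GAS match. In the GBP genes the ISRE core read on the opposite strand, from 59 to 50 bases before the start in Gbp2 and from 53 to 44 in Gbp7. Gbp3 held 2 overlapping ISRE matches upstream of the first of its 2 annotated starts and none at the second.

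Intensities of all 8 genes were lower on average in OVA mice, most for Gbp6, Iigp1, Igtp and Irgm2 and least for Gbp3 and Irgm1. Differences are log2(intensity + 4.88) values from a limma fit of treatment and sex over 22518 probe sets. The median over the 8 genes, each by its brightest probe set, was -0.50, and over all 11988 genes tested 0.02. All 6 OVA arrays lay below both controls for 4 of the 8 genes (Igtp, Irgm2, Gbp6 and Gbp7), against 4.65% of all genes, and for 5 of the 12 probe sets, against 5.01% of all probe sets; since this contrast chose the genes, nothing is read from these shares. With limma 0 of the 22518 probe sets passed an adjusted p of 0.05 (0%; smallest adjusted p = 0.21), and 2524 had an unadjusted p under 0.05. In a bulk sample fewer cells that make a transcript and less of it per cell cannot be told apart.

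**Figure D1:**
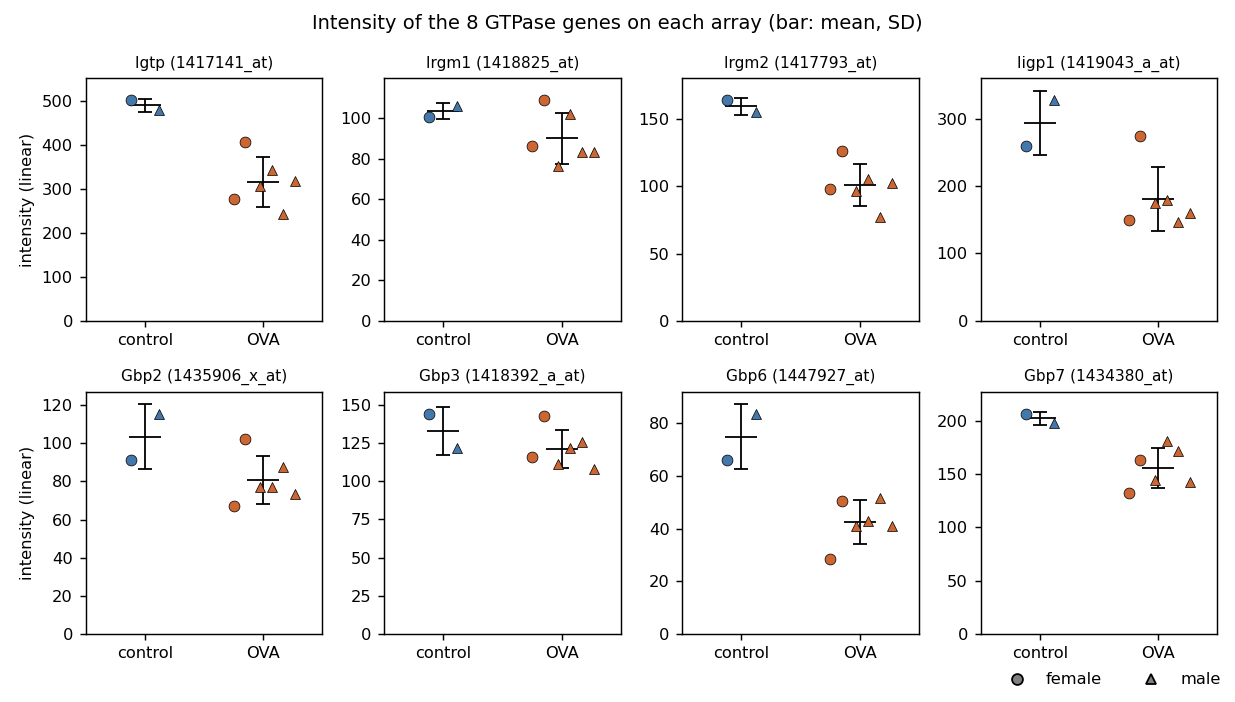
Deposited intensity (linear scale from 0) of the brightest probe set of each of the 8 genes on each of the 8 arrays, controls in blue and OVA in orange, circles for females and triangles for males, with the mean and SD of 2 controls and 6 OVA mice. Igtp, Irgm2, Gbp6 and Gbp7 show no overlap, while female OVA 12 reaches control level for Irgm1, Iigp1, Gbp2 and Gbp3.

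Among the regulatory IRG genes, Igtp (1417141_at) was at 501 in female control 7 and 480 in male control 8. It was at 277.5 and 406.8 in female OVA 2 and 12, and at 307, 342, 242 and 318 in male OVA 1, 5, 8 and 13. The gap between the lowest control and the highest OVA array was thus smaller than the range among OVA arrays. Igtp averaged 490.5 ± 14.9 (SD, n = 2) over the controls and 315.5 ± 56.5 (SD, n = 6) over the OVA mice, a log2 difference of -0.62 ± 0.17 (SE), or 1.54-fold lower.

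Irgm2 (1417793_at), its neighbour, was at 164 and 155 in female control 7 and male control 8. It stood at 97.9 and 126.5 in female OVA 2 and 12, and at 96.8, 105.3, 77.2 and 102.4 in male OVA 1, 5, 8 and 13. The order of the 8 arrays was close to that of Igtp, with male OVA 8 lowest and female OVA 12 the highest of the OVA arrays in both. The log2 difference was -0.62 ± 0.15 (SE), from 159.6 ± 6.33 (SD, n = 2) to 101 ± 15.9 (SD, n = 6). The third regulator, Irgm1, whose loss in mice lets effector IRG proteins act on the cell's own membranes, was at 100.4 and 106 in the controls and between 76.2 and 108.6 in OVA mice, with a median of 84.8. Female OVA 12 lay above both controls and male OVA 5 (102) between them, so the groups overlapped, and the log2 difference was -0.18 ± 0.14 (SE), or -0.29 without the female and -0.05 without the male control.

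The effector Iigp1 was measured by 2 probe sets. On the brighter (1419043_a_at) it was at 259.8 and 327 in female control 7 and male control 8, at 149.1 and 275 in female OVA 2 and 12, and at 174.4, 179.3, 146.3 and 159.6 in male OVA 1, 5, 8 and 13. Female OVA 12 lay between the controls and the other 5 OVA arrays below both. The log2 difference was -0.69 ± 0.23 (SE), and it was -0.35 when the male control was left out. On the dimmer probe set (1419042_at) the log2 difference was -0.31 ± 0.22 (SE). It ran from -0.54 without the female control to -0.05 without the male control, and was -0.52 without female OVA 12 and -0.18 without female OVA 2. Female OVA 12, at 71.4, lay above both controls (53.3 and 65.3). Over the 8 arrays the 2 probe sets had a correlation of 0.91.

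Of the GBP genes, Gbp6 had the largest log2 difference of the 8 genes, each by its brightest probe set. By the mean of a gene's probe sets, Igtp and Irgm2 (both -0.62) were further from 0 than Gbp6 (-0.57). Its brighter probe set (1447927_at) was at 66.2 and 83.6 in female control 7 and male control 8, at 28.6 and 50.4 in female OVA 2 and 12, and at 40.9, 43, 51.6 and 40.9 in male OVA 1, 5, 8 and 13. All OVA arrays lay below both controls. The log2 difference was -0.80 ± 0.18 (SE), or 1.74-fold lower, and on the dimmer probe set (1438676_at), at 22.6 and 27.3 in controls and 13.5 to 22.7 in OVA mice, it was -0.34 ± 0.17 (SE), or -0.20 without the male control. The 2 probe sets of Gbp6 agreed least of the 4 such pairs, with a correlation of 0.74 over the 8 arrays and 0.46 over the 6 OVA arrays. Gbp6 lies among near-identical relatives (Gbp10 before it and Gbp11 after it in the reference order of chromosome 5), which a probe set may not tell apart.

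Gbp7, a member of the cluster on chromosome 3, was at 206.8 and 198.2 in female control 7 and male control 8 (1434380_at). It was at 131.9 and 163.3 in female OVA 2 and 12, and at 144.3, 180.9, 172.1 and 142.5 in male OVA 1, 5, 8 and 13. No OVA array reached a control. The log2 difference was -0.39 ± 0.14 (SE), and its other probe set (1425156_at) gave -0.28 ± 0.12 (SE), also without overlap.

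Gbp2, a lipid-anchored GBP that is drawn to parasite and bacterial vacuoles, overlapped between groups on both probe sets. On the brighter (1435906_x_at) it was at 91.4 and 115.6 in the controls and between 66.9 and 102.4 in OVA mice, with a median of 77, and female OVA 12 was the only OVA array above a control. The log2 differences were -0.35 ± 0.17 (SE) and, on the other probe set (1418240_at), -0.34 ± 0.21 (SE). Without the male control they were -0.13 and -0.07, without the female control -0.53 and -0.56, and the dimmer was -0.51 without female OVA 12. The _x_ in a probe set name marks probes that may bind other transcripts. Gbp3 was at 144.2 and 121.9 in female control 7 and male control 8 and between 107.9 and 142.5 in OVA mice, with a median of 119. Here the male control lay within the range of OVA arrays, and the log2 difference was -0.11 ± 0.11 (SE), or -0.04 without female OVA 2 and -0.06 without the female control.

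**Figure D2:**
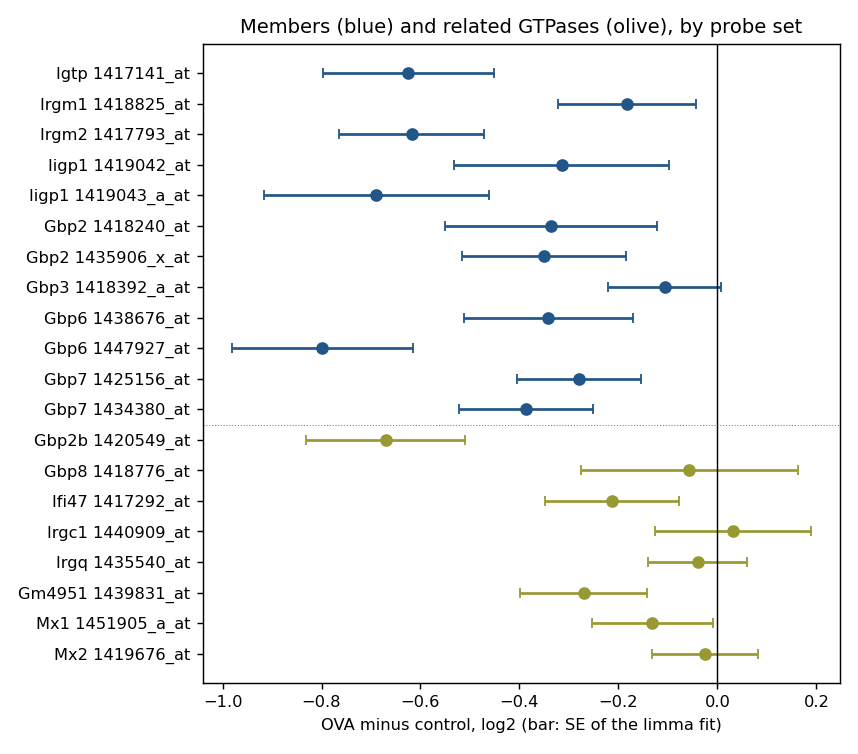
Log2 difference of OVA minus control (points) with the SE of the limma fit (bars) for each of the 12 member probe sets (blue) and the 8 related GTPase genes past the filter (olive). All 12 member values lie below 0, from -0.80 (Gbp6) to -0.11 (Gbp3), and among relatives Gbp2b (-0.67) is the lowest.

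The OVA mice differed among themselves. Female OVA 12 was the highest OVA array for 6 of the 8 genes and was below both controls for only 4, whereas female OVA 2 was below both controls for all 8 and the lowest OVA array for 3. All 8 genes were higher in female OVA 12 than in female OVA 2. Male OVA 1 and 13 were also below both controls for all 8 genes, male OVA 8 for 7 and male OVA 5 for 6. The share of all genes below both controls on a single array was not computed. Since this contrast chose the genes, nothing is read from these counts. Without female OVA 12, the number of genes with every OVA array below both controls was 6 in place of 4, with Iigp1 and Gbp2 added, while the share of all genes was 5.72%. The same 6 genes had no overlap without the female control, where 18.6% of all genes did so. Without the male control there were 5, with Gbp3 added to the 4, against 9.18% of all genes.

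By the brightest probe set of each gene, the IRG and GBP genes parted on average in male OVA 8. A score was taken as the mean of log2 values over the genes of a family, minus the mean of the 8 arrays. The IRG score was 0.38 and 0.45 in the controls, -0.26 and 0.26 in female OVA 2 and 12, and -0.21, -0.04, -0.41 and -0.18 in male OVA 1, 5, 8 and 13. The GBP score was 0.26 and 0.35 in the controls, -0.35 and 0.12 in female OVA 2 and 12, and -0.17, -0.05, 0.05 and -0.21 in male OVA 1, 5, 8 and 13. Male OVA 8 was thus the lowest of all arrays for the IRG genes and the second highest OVA array for the GBP genes. By their brightest probe sets, Igtp, Irgm2 and Iigp1 each had their lowest intensity there, while Gbp6 had its highest among OVA mice. The dimmer probe sets differed. That of Iigp1 was lowest in female OVA 2 (36.7), with male OVA 8 at 43.8. That of Gbp6 was highest among OVA mice in male OVA 13 (22.7), with male OVA 8 at 19.2. Irgm1 was lowest in male OVA 1 (76.2). Male OVA 8 also had the highest ratio of 3′ to 5′ beta-actin probe sets, which rises as RNA degrades, at 1.58. The ratio was 1.43 and 1.54 in controls and 1.29 to 1.37 in the other OVA mice. For Gapdh the same ratio was highest in male control 8 (1.00), followed by male OVA 8 (0.96), and was 0.83 to 0.90 on the other arrays. Male OVA 8 also had the lowest score of epithelial markers (-0.41). The part of these in the difference was not tested.

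Over the 6 OVA arrays, which leave out the contrast that chose the genes, the median correlation was higher for pairs within a family than for pairs across families, a description with no test. The 6 pairs of IRG genes had correlations from 0.71 to 0.96 (median 0.79), the 6 pairs of GBP genes from 0.56 to 0.86 (median 0.68), and the 16 pairs of an IRG with a GBP gene from -0.03 to 0.77 (median 0.41). These values describe 6 arrays whose RNA, labelling and scaling all genes share.

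**Figure D3:**
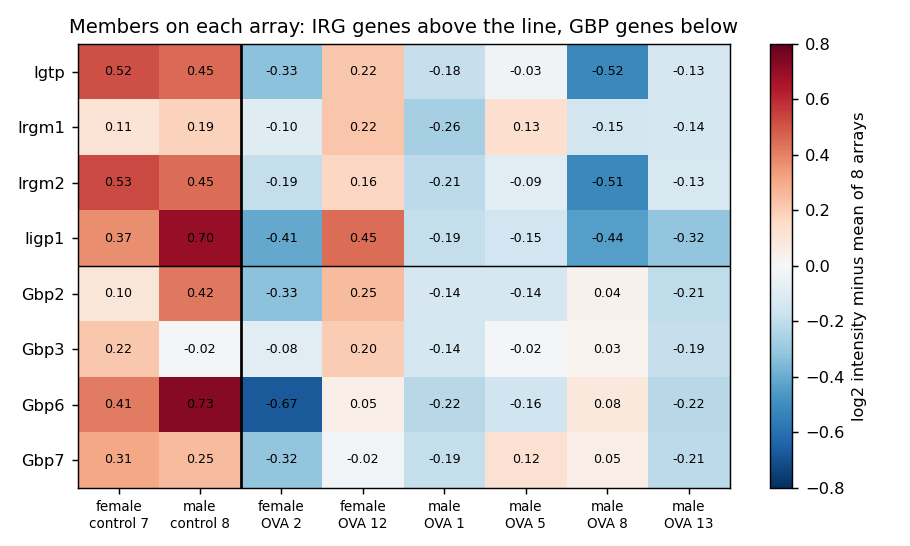
Log2 intensity of each of the 8 genes (rows) on each array (columns), minus the gene's mean over the 8 arrays, with red for higher and blue for lower; the vertical line parts controls from OVA and the horizontal line IRG from GBP genes. Female OVA 12 is above 0 for 7 of the 8 genes, and male OVA 8 is below 0 for the 4 IRG genes and above 0 for the 4 GBP genes.

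The sexes, which played no part in the choice of these genes, gave no call. Of the 12 member probe sets 0 passed for female minus male (adjusted p of 0.909 to 0.983 with limma), where 12 of 22518 probe sets passed over the whole array (0.0533%). None of the 12 had an unadjusted p under 0.05, 6 were higher in females and 6 higher in males. The differences ran from -0.22 ± 0.16 (SE) for Gbp6, which was lower in females, to 0.18 ± 0.13 (SE) for Irgm2. For Gbp6 the difference was -0.01 without female OVA 2 and -0.46 without female OVA 12. For Irgm2 it was 0.28 and 0.06 without these same mice, and 0.11 without male OVA 8.

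Whether males and females differed in their OVA effect was tested in a fit of the 4 group means, and again 0 of the 12 passed (adjusted p of 0.759 to 0.968), as did 0 of all 22518 probe sets (0%; 1846 at an unadjusted p under 0.05). The difference, males minus females, was furthest from 0 for Iigp1, at -0.62 ± 0.43 (SE), with an OVA effect of -0.35 in females and -0.97 in males. For Gbp7 it was 0.17 ± 0.28 (SE), with -0.48 in females and -0.31 in males. Without female OVA 12 the difference was -0.19 for Iigp1 and 0.32 for Gbp7, and without female OVA 2 it was -1.05 and 0.023. Without male OVA 5 it was 0.11 for Gbp7. With 1 control in each sex these errors are large, and the missing calls do not show that the sexes respond alike.

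The related GTPases on the array lie outside the chosen genes. Their lists were written with earlier results of these data known. The contrast and the arrays are the same, so the counts are not a separate check. Of 8 relatives past the filter 7 were lower and 1 higher, where 46.3% of all genes were lower, and 3 had all OVA arrays below both controls (Gbp2b, Gm4951 and Mx1), as 4.65% of all genes had. None passed limma (smallest adjusted p = 0.352). Of the lower relatives, Gbp8 (-0.06 ± 0.22 SE), Irgq (-0.04 ± 0.10 SE) and Mx2 (-0.02 ± 0.11 SE) were closer to 0 than their SE. Mx1 was at -0.13 ± 0.12 (SE). Gbp2b, formerly Gbp1, stands next to Gbp2 on chromosome 3 and holds an ISRE core further upstream, from 137 to 128 bases before its start. It was at 127.7 and 153.3 in female control 7 and male control 8, at 76.4 and 110.9 in female OVA 2 and 12, and at 76.3, 89.3, 76.9 and 89.3 in male OVA 1, 5, 8 and 13. It did not overlap between the groups, and its log2 difference was -0.67 ± 0.16 (SE, adjusted p = 0.352).

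The other relatives had smaller differences. Ifi47 (Irgd), an IRG of chromosome 11, was at 623.5 and 660.8 in controls and between 462.5 and 684 in OVA mice. Female OVA 12 was the highest of the 8 arrays there as well, and the log2 difference of Ifi47, -0.21 ± 0.14 (SE), was 0.015 without the male and -0.40 without the female control. Gm4951, an Iigp1-like gene, was dim, at 17.1 and 15 in controls and 10.1 to 14.6 in OVA mice (log2 difference -0.27 ± 0.13 SE, or -0.17 without the female control). Gbp8 ran from 34.5 to 70.6 in OVA mice, around controls of 57 and 45.2. Irgc1 and Irgq, relatives that are not known to be interferon-induced, were at 0.03 ± 0.16 (SE) and -0.04 ± 0.10 (SE). A dimmer probe set of Irgq (1437653_at), under the filter and not tested, was at 12.1 and 14 in controls and 8.82 to 10.6 in OVA mice. The dynamin-like antiviral GTPases Mx1 and Mx2, which the reference lists as pseudogenes, were at 25.2 and 25.3 in controls and 17.6 to 24.8 in OVA mice for Mx1, and at 13 and 14.7 and 11.7 to 15 for Mx2. A further 3 probe sets name several genes, a member or relative among them, and were not used.

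Interferon gamma itself was too dim to compare. Ifng was at 9.68 and 6.25 in the controls and between 3.82 and 6.19 in OVA mice, all under the filter at 11.9, and Il12b was under it too. Of 14 genes of the interferon gamma pathway (cytokine inducers, receptor, signalling and feedback) 6 were lower and 8 higher, with a median of 0.09, and 0 passed. Both receptor chains overlapped between groups, Ifngr1 at 261.3 and 319.7 in controls and 269.2 to 300 in OVA mice, and Ifngr2 at 812.1 and 935.7 and 623.1 to 1102.

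Of the 14 pathway genes past the filter, 1 had all OVA arrays below both controls, as 4.65% of all genes had. This was Irf1, the transcription factor that carries the interferon gamma signal to ISRE elements. It was at 601.6 and 777.6 in female control 7 and male control 8, at 476.6 and 575.7 in female OVA 2 and 12, and at 480.5, 522.1, 411.4 and 528.8 in male OVA 1, 5, 8 and 13. Its log2 difference was -0.46 ± 0.15 (SE, adjusted p = 0.409), and -0.20 without the male control. On the other side Il12a, a subunit of the inducer IL-12, had all OVA arrays above both controls, 24.3 to 54.6 against 22.6 and 17.7 (0.72 ± 0.22 SE, adjusted p = 0.389), which 7.99% of all genes showed. Socs1, which shuts down the receptor's signal, was at 15 and 18 in controls and 17.2 to 32 in OVA mice, and Irf8, a partner of IRF1 in immune cells, at 537.5 and 553.4 and 414 to 788.9.

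Target genes of interferon gamma other than GTPases were lower in 16 of 19 (median -0.14), and 0 passed. Of the 19 genes 1 (Tap2) had all OVA arrays below both controls, as 4.65% of all genes had. Of all 11988 genes 46.3% were lower. Cxcl9, a T cell chemokine, was at 103.4 and 118.9 in the controls, 56.9 and 122.5 in female OVA 2 and 12, and 69.3, 80.8, 76.9 and 65.9 in male OVA 1, 5, 8 and 13. Female OVA 12 was the highest of the 8 arrays, and the other OVA arrays were below both controls. The promoter window of Cxcl9 held no ISRE core and no GAS core. The log2 difference of Cxcl9 was -0.50 ± 0.24 (SE), or -0.29 without the male control and -0.32 without female OVA 2. Ido1, a tryptophan-degrading enzyme, was at -0.56 ± 0.29 (SE), but at -0.16 without the male and -0.90 without the female control. Cxcl11 and the adhesion molecule Icam1 were at 0.24 ± 0.15 (SE) and 0.25 ± 0.25 (SE), against -0.0030 and 0.08 without the female and 0.53 and 0.45 without the male control. Icam1 was also at 0.14 without female OVA 12 and 0.16 without male OVA 8. Cxcl10 was at 28.8 and 34.2 in controls and 17.9 to 41.2 in OVA mice.

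Type I interferon stimulated genes were lower in 22 of 25 (median -0.17; 46.3% of all genes were lower), with 0 passing and 5 below both controls without overlap (Oas2, Ddx58, Zbp1, Parp9 and Dtx3l), as were 4.65% of all genes. Zbp1, a nucleic acid sensor, had a log2 difference of -0.59 ± 0.16 (SE), and Oasl2 one of -0.58 ± 0.26 (SE), which was -0.14 without the female and -1.12 without the male control. The genes Trim30a (0.21 ± 0.24 SE) and Ifi27l2a (0.25 ± 0.21 SE) were the highest. The order of this list over the arrays differed from that of the GTPases. The score of this list was lowest in female OVA 12 (-0.23), where the 8 GTPase genes together had their highest OVA score (0.19). In female OVA 2 the order was turned, with 0.13 for the stimulated genes and -0.30 for the GTPases. The score of interferon gamma targets was 0.20 in female OVA 12 and -0.11 in female OVA 2. Type I and III interferon receptors and signalling genes were lower in 5 of 10 and higher in 5 (0 passing). Irf7, the amplifier of type I interferon, was at 237.6 and 187.2 in controls and 130.9 to 173.5 in OVA mice, without overlap below the controls. Irf9 was at 93.8 and 92.5 in controls and 99.9 to 134.6 in OVA mice, without overlap above them. So 1 of these 10 genes lay below and 1 above both controls, as did 4.65% and 7.99% of all genes. Ifnar2 (0.21 ± 0.13 SE) and Irf5 (0.26 ± 0.24 SE) were the highest of the 10 genes. Stat2 was at 37.3 and 37.4 in controls and 26.1 to 40 in OVA mice.

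**Figure D4:**
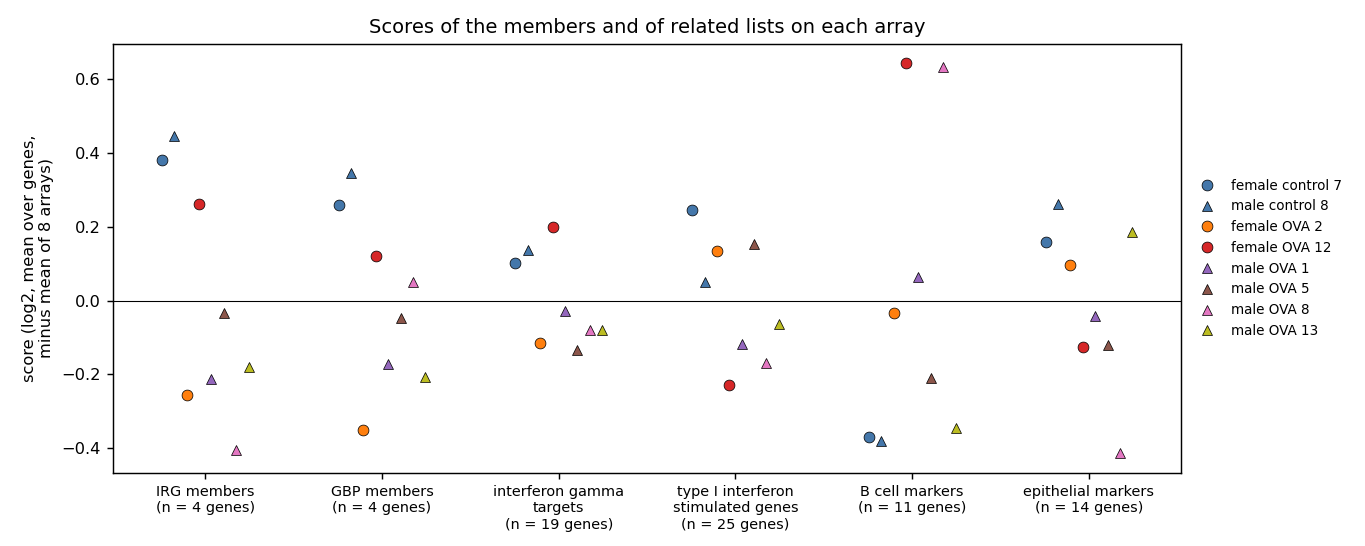
Score (mean log2 over the genes of a list, minus the mean of the 8 arrays) on each array for the IRG and GBP members and 4 lists, circles for females and triangles for males, controls in blue and each OVA mouse in its own colour. Female OVA 12 is the highest OVA array for the IRG and GBP genes, interferon gamma targets and B cell markers, and the lowest for type I interferon stimulated genes.

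The genes through which these GTPases act gave no call. Of 13 genes of autophagy conjugation, which places IRG and GBP proteins on vacuoles, 7 were lower and 6 higher (median -0.01, 0 passing). Atg5 was at 117.6 and 116.7 in controls and 108.8 to 128.9 in OVA mice, and Atg3 and Atg12 were at 0.25 ± 0.12 (SE) and -0.24 ± 0.13 (SE). The LC3 genes Map1lc3a and Map1lc3b were at -0.14 ± 0.13 (SE) and 0.18 ± 0.10 (SE). All 6 inflammasome genes past the filter were lower (median -0.16, 0 passing), where 46.3% of all genes were lower. Aim2 and Nlrp3 were under the filter. The adaptor Pycard (-0.31 ± 0.14 SE, or -0.20 without the male control) had all OVA arrays below both controls, as 4.65% of all genes had. Casp1 and Il1b were at -0.12 ± 0.13 (SE) and -0.06 ± 0.13 (SE). Casp4, the lipopolysaccharide-sensing caspase that GBP proteins help to engage, was at 303.3 and 408.5 in controls and 171.8 to 410.7 in OVA mice.

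By likeness of pattern, the mean of the 8 members over the 8 arrays was compared with 11980 other genes. The highest correlation was that of Gbp2b (0.97), followed by Ccdc93 (0.96), Brwd1 (0.95), Rexo5 and Cxcl9 (both 0.94), and Galc, Senp5, Zfp9, Psmd3 and Selenow (0.91 to 0.92). Of these 10 genes, Gbp2b and Cxcl9 belong to the GTPase or interferon lists, and the share of all genes in these lists was not computed. The ranking over 8 arrays includes the controls, so it holds the contrast that chose the members. Genes lower in OVA mice tend to rank high in it. Over the 6 OVA arrays alone the order was Dgcr8, Sh3bp4, Cxcl9, Nod1, Ccdc93, Bcl2l13, Spring1, Bola3, Thop1 and Zfp882, with Dgcr8 at 0.998 and Zfp882 at 0.96, so Cxcl9 and Ccdc93 were in both groups of 10. The correlations are a description of 8 or 6 arrays, over 11980 genes, and carry no test.

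Markers of the cells in the patch also differed in level, and their part in the GTPase differences was not tested. All 11 B cell markers were higher (median 0.59), with a summed intensity of 3738 and 4110 in controls and 3899 to 8058 in OVA mice, and all 14 epithelial markers lower (median -0.25), summing to 29065 and 30654 in controls and 20117 to 30073 in OVA mice. Female OVA 12 and male OVA 8 had the highest B cell scores (0.64 and 0.63). Their IRG scores were 0.26 and -0.41. Their GBP scores, 0.12 and 0.05, were the highest of the OVA arrays. T cell, natural killer and cytotoxic markers, the cells that make interferon gamma, were lower in 8 of 16 and higher in 8, and summed to 2912 and 3175 in controls and 1674 to 3318 in OVA mice. Within them Gzma (-0.58 ± 0.27 SE) and Gzmb (-0.70 ± 0.34 SE) were lowest and Cd8b1 (0.58 ± 0.11 SE) highest. Macrophage and dendritic cell markers were lower in 8 of 15 (median -0.00; 7688 and 8271 in controls, 7774 to 10427 in OVA mice), endothelial markers in 6 of 8 (525 to 537.3 and 504.2 to 753.3) and fibroblast markers in 5 of 7 (5125 to 5242 and 4218 to 6105). No marker was listed at 0, and 0 of these markers passed.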

How the data were processed

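The authors hybridised biotin-labelled RNA of 8 mice to a single-colour Affymetrix array, per the labels, and deposited normalized probe set intensities on a linear scale (1.86 to 14749); the submitters' processing notes name MAS5, without a version or scaling target. Equal values on 2 or more arrays were held by 51.5% of probe sets, which MAS5 scaling of each array alone does not give, so any normalization between arrays is unknown and differences are relative to it. The number of arrays limits the precision. Array annotation named 1 gene for 34945 probe sets and several for 932.

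Intensities were taken to log2(value + 4.88), the 25th percentile of all values, without further scaling, and the 22518 of the probe sets above the median (intensity 11.9), 64 control probe sets left out, were tested with lmFit and eBayes of limma 3.58.1 (R 4.3.3), two-sided, with Benjamini-Hochberg adjustment. OVA minus control and female minus male came from 1 additive fit with 5 residual degrees of freedom, and the sex difference in the OVA effect from 4 group means with 4. The brightest probe set past the filter stood for a gene. The methods were tested on simulated data. Python 3.11.15, NumPy 2.4.6, pandas 2.3.3 and matplotlib 3.10.9 were used.

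The members, lists and rules were chosen with earlier results of these data known. Named were all members and GTPase relatives, the 2 lowest and 2 highest genes of other lists, some pathway genes and the 10 genes most alike in pattern, except that most extremes of the marker lists are given by list only.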

Additional observations from a re-analysis of the deposited data

How the results depend on the processing

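The analysis was repeated with other pseudocounts (1, or the median), quantile normalization, median centring, without the filter and with one at the 75th percentile, with a trended and robust variance or with array weights, the mean of a gene's probe sets, no sex covariate, each sex alone, the OVA arrays alone for the sexes, and each array left out. The number of probe sets or related genes called for OVA minus control, and of member probe sets called for the sexes or for their difference in the OVA effect, was 0 in each. The median over the 8 members lay between -0.60 and -0.42; the filter at the 75th percentile left 7 of them, without Gbp6, with a median of -0.39. Of the 232 values of single member probe sets 0 were above 0. The genes were chosen as lower in OVA mice on these same arrays, so this sign is no test. The settings share arrays, so the values are not separate checks. Among member probe sets Iigp1 (1419043_a_at) went from -0.69 to -0.35 within females, which is also the value without the male control. The number of member genes without overlap stayed at 4 under quantile normalization and median centring and was 4 to 6 with an array left out, while the share of all genes ran from 5.11% to 18.6%. Among related genes Ifi47 turned to 0.015 within females and without the male control, and Cxcl11 to -0.0030 within males and without the female control; with an array left out Ifi47 ran from -0.40 to 0.015 and Cxcl11 from -0.0030 to 0.53. Leaving out a control makes the contrast that of the other sex. The contrast of the sexes' OVA effects could not be fitted without a control. No paired analysis was possible because the control and OVA groups share only 1 mouse number. Each sex has 1 control, so its error is not measured.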
